A study of Mus musculus with 26 samples.

Results

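The genes described here are 36 that carry out or serve the oxidation of fatty acids in mitochondria and peroxisomes, measured in the inguinal subcutaneous white fat of mice that lack the glucose-sensing transcription factor ChREBP or its short isoform. They were found by name among the 26154 genes of the deposited value table, and each was represented by its probe of highest mean over all arrays. That table held only array probes that had passed a spot quality filter, and shares of all genes below refer to it. By function, 3 activate fatty acids, 17 act in mitochondria, 13 act in peroxisomes and 3 act in both compartments. Values are log2 normalized intensities, on which a difference of 1 is a doubling, and 1 array was hybridised per mouse.

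The 26 arrays fell into 4 groups. The total ChREBP KO mice (n = 7) were Mlxipl-null and lacked ChREBPα and ChREBPβ, and the ChREBPβ KO mice (n = 5, ChREBPbeta_KO in the labels) carried a deletion, made by gene editing, of the Mlxipl exon that is specific to the short isoform. Each line had its own WT mice (n = 7 in each line). All groups were C57BL6/J males on a regular diet, deprived of food for 24 h before 18 h of refeeding, during which the water held 20% glucose. The age of the mice, and which of the edited founder lines was used, are not given in the sources used here. Both deletions were in the germline, so fat was not the only tissue without the factor.

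A long-chain fatty acid is first joined to coenzyme A, then handed to carnitine by CPT1 at the outer mitochondrial membrane, carried inward, and handed back to coenzyme A by CPT2. In the mitochondrial matrix it is shortened by repeated rounds of dehydrogenation, hydration, a second dehydrogenation and thiolysis, with electrons passed on by the electron transfer flavoprotein. Peroxisomes run a like set of steps with other enzymes, on very long-chain, branched and dicarboxylic acids and on bile acid side chains, and pass the shortened products on. White fat stores fatty acids more than it burns them, whereas brown and beige fat cells are rich in these enzymes. Glucose in the refed state is known to favour ChREBP activity and fat synthesis.

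The sequences shown are the start regions of 3 members that did not overlap between total ChREBP KO mice and the WT mice of their line, and 1 array probe whose gene had a disagreeing pair of probes. Promoters of 300 bases were taken from RefSeq on build GRCm38.p6, and 31 of the 36 members had an entry. The nuclear receptor site AGGTCA, searched on both strands, lay in the promoters of 5 members, Acadm, Acadvl, Cpt1a, Echs1 and Scp2, which was 16.1% of the 31, against 16.3% of all 32851 promoters. Its direct repeat, 2 copies of AGGTCA in one direction with 1 base of any kind between, on which PPAR receptors bind, was found for 0 members and in 0.0396% of all promoters. The E-box CACGTG was found for 0 members and in 7.15% of all promoters. An exact pair of it with 5 bases between was found in 0 of the 32851 promoters. Looser forms were not searched, so these counts do not show whether members carry an element bound by ChREBP. The 250 bases before the start are given 5′ to 3′ on the strand of the gene, with AGGTCA in capitals in either orientation, for Cpt1a (chr19:3323051-3323300, plus strand), for Scp2 (chr4:108118548-108118797, minus strand) and for Acox2 (chr14:8259020-8259269, minus strand), in which no such site was found.
Cpt1a: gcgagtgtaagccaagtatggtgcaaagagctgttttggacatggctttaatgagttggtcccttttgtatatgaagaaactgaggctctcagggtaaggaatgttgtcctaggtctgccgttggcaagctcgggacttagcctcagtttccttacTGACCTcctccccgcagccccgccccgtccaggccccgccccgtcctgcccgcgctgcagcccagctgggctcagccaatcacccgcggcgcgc
Scp2: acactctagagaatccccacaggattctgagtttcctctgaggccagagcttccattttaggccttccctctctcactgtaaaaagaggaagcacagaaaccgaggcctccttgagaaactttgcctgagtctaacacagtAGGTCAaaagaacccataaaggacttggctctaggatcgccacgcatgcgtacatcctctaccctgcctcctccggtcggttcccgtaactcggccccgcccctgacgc
Acox2: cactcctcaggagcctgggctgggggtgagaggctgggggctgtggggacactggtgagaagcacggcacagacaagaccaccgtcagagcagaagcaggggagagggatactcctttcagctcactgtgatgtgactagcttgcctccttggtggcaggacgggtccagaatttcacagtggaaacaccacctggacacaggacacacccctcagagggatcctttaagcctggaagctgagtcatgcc
The brighter Acsl5 probe matched chr19:55368743-55369331 on build mm9, a stretch of 589 bases for a probe of 60, so that it lay across an intron and read spliced RNA.
Acsl5 probe: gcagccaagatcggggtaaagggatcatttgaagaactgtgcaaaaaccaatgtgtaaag

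The arrays were of even quality. The median spot intensity was between 59 and 107.5 per array, 70.2% to 76.5% of spots were well above background, and r between arrays across probes was 0.954 to 0.996. Every member was well above background on all 26 arrays. Mlxipl, the targeted gene, was lower by 2.28 ± 0.12 (SE) on the log2 scale in total ChREBP KO mice and by 1.52 ± 0.13 in ChREBPβ KO mice on its brightest probe, with adjusted p = 1.9e-13 and 6.45e-07 in limma. Its other probes differed by −0.90 and −0.13 in total ChREBP KO mice and by −0.68 and 0.04 in ChREBPβ KO mice, and of these only the −0.90 passed (adjusted p = 2.34e-06). All 12 adipocyte markers were above background in every group, with Adipoq at 16.50 in the WT mice of the total line and at 17.55 in total ChREBP KO mice. The WT mice of the total line had the highest mean of lymphocyte and of brown and beige fat markers, with some overlap with other groups, and the lowest mean of adipocyte markers, without overlap, and these values are given with the results they touch.

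Most of the oxidation genes differed between total ChREBP KO mice and their WT, more often upward. With the mean of the adipocyte markers in the fit, however, 4 were called higher and 7 lower. In that fit 6.03% of all probes were called, against 45.5% with the groups alone. The part of cell makeup in these differences was not tested. Of the 36 members, 25 passed an adjusted p of 0.05 in limma between total ChREBP KO mice and their WT, against 45.9% of all genes. The 20 that rose are to be read against 25.7% of all genes called higher, and the 5 that fell against 20.2% called lower. The median difference of the members was 0.30 on the log2 scale, against 0.05 for all genes. In peroxisomes 7 of 13 members rose and 1 fell, in mitochondria 9 of 17 rose and 3 fell, all 3 enzymes shared by both compartments rose, and of the activating enzymes 1 rose and 1 fell. The arrays of both groups did not overlap for 13 members that were higher and 2 that were lower, against 9.78% and 4.78% of all genes.

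**Figure D1:**
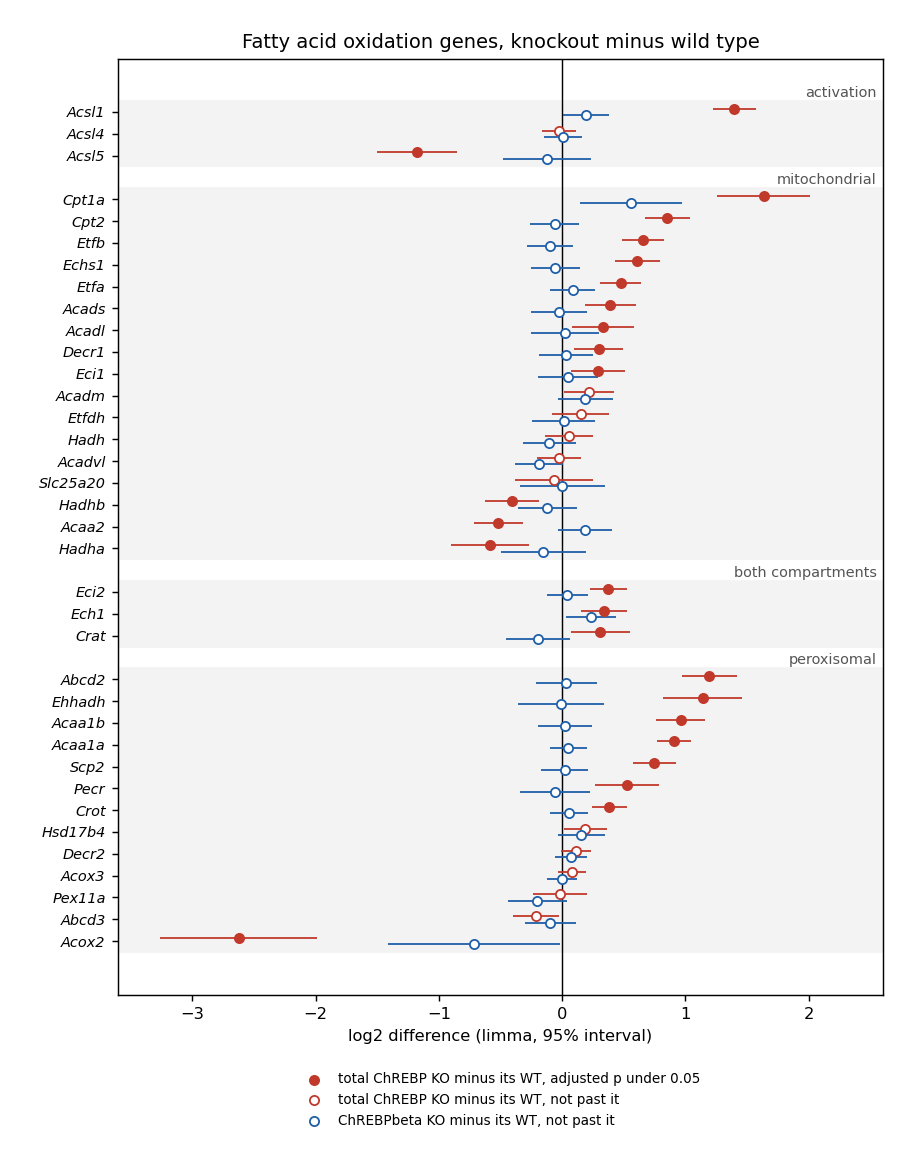
Log2 difference, KO minus WT of the same line, of each of the 36 members (x axis, with its 95% interval from limma), ordered within the 4 groups of function (y axis). Filled points passed an adjusted p of 0.05: 25 members in total ChREBP KO mice (red) and 0 in ChREBPβ KO mice (blue).

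The activating enzymes went in opposite directions. Acsl1, the main long-chain acyl-CoA synthetase of fat cells, ranged from 15.63 to 16.07 in the WT mice of the total line, with a median of 15.94. It ranged from 17.05 to 17.47 in total ChREBP KO mice, with a median of 17.26, so that all 7 KO arrays were above all 7 WT arrays. In the ChREBPβ line it was 16.38, 16.62 and 16.71 (lowest, median, highest) in WT mice, and 16.46, 16.75, 16.78, 16.85 and 16.96 in KO mice, which overlapped and lay between the groups of the total line. The difference in the total line was 1.40 ± 0.08 (SE), a 2.63-fold rise with adjusted p = 1.94e-12 in limma, and both other Acsl1 probes rose as well, by 1.70 and 1.40. Acsl5, a synthetase of mitochondria and endoplasmic reticulum, was 11.003, 11.94 and 12.62 in WT mice of the total line and 10.67, 10.80 and 10.90 in KO mice, without overlap. It fell by 1.18 ± 0.16, adjusted p = 1.54e-06, but its dimmer probe differed by 0.12 and did not pass (adjusted p = 0.139). The Acsl5 values of the ChREBPβ line, 10.79 to 11.31 in WT and 10.88, 10.90, 10.91, 10.93 and 10.99 in KO mice, were near those of total ChREBP KO mice. Acsl4, which prefers arachidonic acid, differed by −0.03 ± 0.07 (adjusted p = 0.772).

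At the carnitine shuttle, both acyltransferases among the members, Cpt1a and Cpt2, rose and the carrier did not pass the test. Cpt1b, another form of CPT1 that is not among the members, fell, as given below with the wider lists. Cpt1a, the rate-limiting entry step, had the highest rise of all members, 1.63 ± 0.18 or 3.10-fold, adjusted p = 1.09e-07. Its values were 9.88, 10.56 and 10.75 in WT mice of the total line against 11.63, 12.07 and 12.77 in KO mice. The WT mice of the ChREBPβ line were at 10.87, 11.74 and 12.06, above all WT arrays of the total line, and the ChREBPβ KO mice at 11.91, 12.18, 12.19, 12.23 and 12.47. Cpt2, which remakes acyl-CoA inside, showed another pattern, with only the total ChREBP KO mice set apart. It was 13.96, 14.25 and 14.42 in WT mice of that line, 14.86, 15.01 and 15.27 in KO mice, 13.85, 14.18 and 14.51 in WT mice of the ChREBPβ line and 13.88, 14.16, 14.18, 14.20 and 14.23 in ChREBPβ KO mice. The Cpt2 difference was 0.85 ± 0.09 (adjusted p = 3.91e-08), and its dimmer probe rose by 1.09. Slc25a20, the carnitine-acylcarnitine carrier, differed by −0.07 ± 0.15 (adjusted p = 0.753).

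Inside the mitochondrion both subunits of the electron transfer flavoprotein, Echs1, Acads, Acadl, Decr1 and Eci1 rose, while both subunits of the trifunctional protein and Acaa2 fell. Etfb, a subunit of the flavoprotein, ranged from 15.62 to 16.31 around a median of 15.93 in WT mice of the total line, and from 16.44 to 16.72 around 16.61 in KO mice. It was 16.05, 16.25 and 16.35 in WT mice of the ChREBPβ line and 15.88, 16.08, 16.12, 16.18 and 16.28 in ChREBPβ KO mice, all below the total ChREBP KO arrays. Etfb rose by 0.66 ± 0.08 (adjusted p = 6.58e-07) and its partner subunit Etfa by 0.48 ± 0.08 (adjusted p = 4.23e-05), the latter on all 3 of its probes. Echs1, the short-chain enoyl-CoA hydratase, rose by 0.61 ± 0.09, again without overlap of the arrays. Smaller rises were found for Acads and Acadl, the short-chain and long-chain acyl-CoA dehydrogenases (0.39 and 0.33), and for Decr1 and Eci1, which prepare unsaturated fatty acids (0.30 and 0.29). Acadm, Acadvl, Hadh and Etfdh, which are the medium-chain and very long-chain dehydrogenases, the hydroxyacyl-CoA dehydrogenase and the flavoprotein's dehydrogenase, did not pass, with differences of 0.22, −0.03, 0.06 and 0.15.

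Hadha and Hadhb encode the α and β subunits of the trifunctional protein, and Acaa2 encodes the medium-chain thiolase. Hadha was 10.78, 11.42 and 11.92 in WT mice of the total line and 10.56, 10.73 and 10.99 in KO mice, so that the groups overlapped at their edges. It fell by 0.58 ± 0.15 (adjusted p = 0.00305). Hadhb, at 15.12, 15.56 and 15.84 against 14.95, 15.16 and 15.27, fell by 0.41 ± 0.11 (adjusted p = 0.00283). Of its dimmer probes 1 fell by 0.64 and the other differed by −0.29 without passing (adjusted p = 0.0989). Acaa2, at 14.80, 15.31 and 15.53 against 14.58, 14.66 and 14.98, fell by 0.52 ± 0.10 (adjusted p = 0.000119). In each of the 3 genes the high group was the WT of the total line, with values that overlapped those of the KO mice, and the medians of the other 3 groups were lower. In the ChREBPβ line Hadha was 10.38 to 11.25 in WT and 10.29, 10.45, 10.51, 10.52 and 10.81 in KO mice, Hadhb was 14.80 to 15.26 in WT and 14.68, 14.90, 14.90, 14.97 and 15.03 in KO mice, and Acaa2 was 14.44 to 14.73 in WT and 14.54, 14.77, 14.83, 14.89 and 14.90 in KO mice.

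The 3 enzymes found in both compartments rose by similar amounts. Eci2, an enoyl-CoA isomerase, was 13.64, 13.87 and 13.96 in WT mice of the total line against 14.07, 14.24 and 14.39 in KO mice, and rose by 0.38 ± 0.07 (adjusted p = 0.000199). Ech1, a dienoyl-CoA isomerase, was 14.14, 14.61 and 14.81 against 14.75, 14.85 and 15.10, and rose by 0.34 ± 0.09 (adjusted p = 0.00373). Crat, which exchanges acetyl groups between coenzyme A and carnitine, was 13.72, 14.15 and 14.58 against 14.26, 14.44 and 14.51. Its rise of 0.31 ± 0.12 was near the threshold (adjusted p = 0.0297), its dimmer probe differed by 0.36 (adjusted p = 0.066), and the call was lost without any 1 of 5 arrays. None of the 3 was called with slide as a fixed block or with the lymphocyte or the adipocyte markers in the fit, and their median difference was −0.29 with the adipocyte markers. In the ChREBPβ line the WT and KO arrays of all 3 overlapped. Eci2 was 13.81 to 14.27 in WT and 13.85, 14.01, 14.06, 14.12 and 14.17 in KO mice, Ech1 was 14.73 to 15.14 and 14.83, 15.07, 15.15, 15.15 and 15.37, and Crat was 13.71 to 14.44 and 13.50, 13.74, 13.75, 13.81 and 13.94.

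In peroxisomes Abcd2, Ehhadh, Acaa1a, Acaa1b, Scp2, Pecr and Crot rose, and the oxidase Acox2 fell. Abcd2, a transporter of very long-chain acyl-CoA, was 9.17, 9.28 and 9.78 in WT mice of the total line and 10.36, 10.57 and 10.82 in KO mice. It rose by 1.19 ± 0.11, or 2.29-fold (adjusted p = 4.16e-09), but the ChREBPβ line was at the level of the KO mice, with 10.41, 10.66 and 10.73 in WT mice and 10.16, 10.54, 10.69, 10.89 and 10.89 in KO mice. Ehhadh, which carries out hydration and the second dehydrogenation, was 9.004, 9.56 and 10.09 in WT against 10.45, 10.76 and 10.99 in KO mice. It rose by 1.14 ± 0.16 (adjusted p = 2.21e-06), with the ChREBPβ line between, at 9.56, 10.15 and 10.56 in WT mice and at 9.83, 10.04, 10.16, 10.17 and 10.40 in KO mice.

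The peroxisomal thiolases Acaa1a and Acaa1b are near-identical copies on chromosome 9, so a probe may read both. Acaa1b was 11.23, 11.56 and 11.99 in WT mice of the total line and 12.35, 12.58 and 12.70 in KO mice. In the ChREBPβ line it was 11.57, 11.63 and 11.73 in WT mice and 11.28, 11.67, 11.70, 11.80 and 11.81 in KO mice, so only the total ChREBP KO mice stood apart. Acaa1b rose by 0.96 ± 0.10 (adjusted p = 2.23e-08). Acaa1a, at 14.93, 15.09 and 15.25 in WT mice of the total line, 15.83, 15.95 and 16.11 in KO mice, 15.21 to 15.35 in WT mice of the ChREBPβ line and 15.02, 15.30, 15.41, 15.46 and 15.49 in ChREBPβ KO mice, rose by 0.91 ± 0.07 (adjusted p = 7.62e-11) on its brighter and by 0.74 on its dimmer probe. The longest run shared by a probe of one and the probe of the other was 6 of 60 bases. The probes were not compared with the transcript of the other gene, so whether a probe reads both was not tested.

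Acox2, the oxidase of branched-chain acids and bile acid precursors, had the largest difference of all members. It was 7.95, 9.07 and 9.73 in WT mice of the total line and 5.68, 6.42 and 6.86 in KO mice, a fall by 2.62 ± 0.31 on the log2 scale to 0.162 of the WT level (adjusted p = 2.26e-07). Acox2 had the lowest mean of all members, and no background was subtracted from these intensities, so the ratio is imprecise. In the ChREBPβ line it was 6.97, 7.79 and 8.27 in WT mice. The ChREBPβ KO mice were uneven, with 6.29, 6.36 and 6.38 on 3 arrays below all of those WT values, 7.06 on the fourth and 8.72 on the fifth, above all of them. Scp2, the sterol carrier protein with thiolase activity, was 15.59, 15.93 and 16.21 in WT mice of the total line and 16.51, 16.69 and 16.81 in KO mice, and rose by 0.75 ± 0.09 (adjusted p = 1.34e-07). Its promoter and that of Cpt1a are those shown above with AGGTCA. Pecr, a trans-enoyl-CoA reductase, rose by 0.53 ± 0.13, and Crot, which makes carnitine esters for export, by 0.38 ± 0.07. The dimmer Crot probe differed by 0.23 and did not pass (adjusted p = 0.0606). Hsd17b4 (the second multifunctional enzyme), Decr2, Acox3 (a second branched-chain oxidase), Pex11a (a factor in peroxisome division) and Abcd3 (a transporter of branched and long-chain acyl-CoA) did not pass, with differences of 0.19, 0.11, 0.08, −0.02 and −0.21. The 3 dimmer Acox3 probes differed by −0.05 to −0.24, and none passed.

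**Figure D2:**
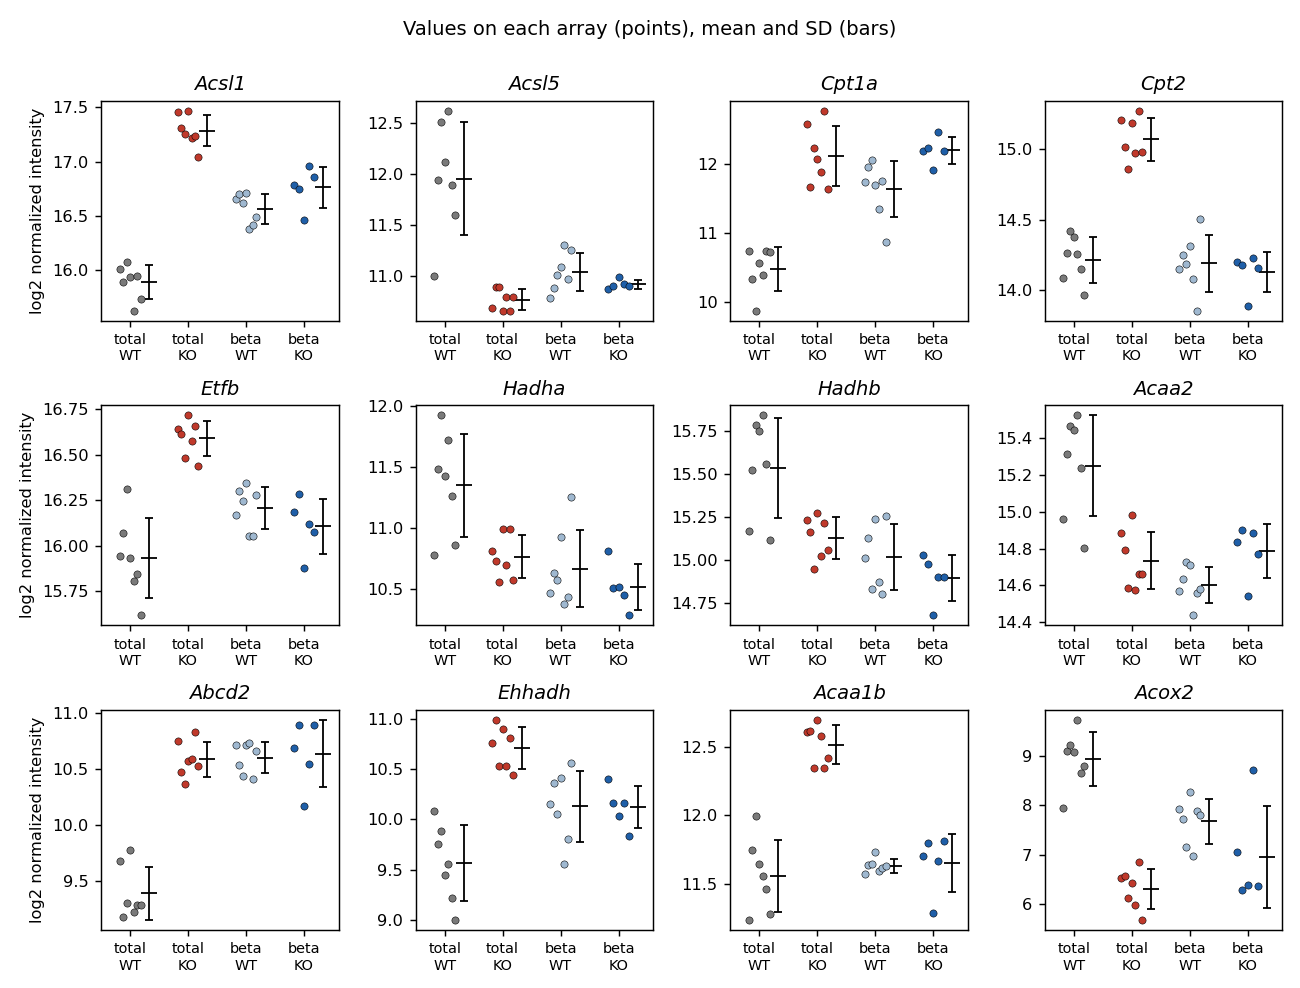
Log2 normalized intensity (y axis) of 12 members on each array, by group (x axis), with the mean and SD beside the points. Cpt2, Etfb and Acaa1b were set apart in total ChREBP KO mice alone, whereas for Abcd2 the WT mice of the total line lay below the other 3 groups without overlap, and for Hadha, Hadhb and Acaa2 they had the highest median, with overlap.

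Loss of ChREBPβ alone gave no call among these genes. In limma 0 of 36 members passed an adjusted p of 0.05, where 0.0497% of all genes did (0.00765% higher, 0.0421% lower), and 4 members had an unadjusted p under 0.05, where 7.74% of probes did. The lowest adjusted p of a member was 0.453, for Cpt1a. Those 4 were Cpt1a (0.56 ± 0.20), Ech1 (0.23 ± 0.10), Acsl1 (0.20 ± 0.09) and Acox2 (−0.71 ± 0.34). The WT and KO arrays overlapped for every member, where 0.0994% of all genes were higher and 0.256% lower without overlap, and the median difference of the members was 0.01. For 34 of the 36 members the 95% interval of the difference lay within −0.5 to 0.5, and the exceptions were Cpt1a, with 0.15 to 0.98, and Acox2, with −1.41 to −0.02. The remaining mitochondrial members differed by between −0.19 (Acadvl) and 0.19 (Acadm), with Slc25a20 at 0.00, Acadl at 0.02, Acads at −0.03, Hadh at −0.10, Echs1 at −0.06, Eci1 at 0.05, Decr1 at 0.03, Etfa at 0.08, Etfb at −0.10, Etfdh at 0.01, Cpt2 at −0.06, Hadha at −0.15, Hadhb at −0.12 and Acaa2 at 0.18. The remaining peroxisomal members differed by between −0.20 (Pex11a) and 0.15 (Hsd17b4), with Abcd2 at 0.03, Abcd3 at −0.10, Acox3 at 0.00, Ehhadh at −0.01, Acaa1a at 0.05, Acaa1b at 0.02, Scp2 at 0.02, Decr2 at 0.07, Pecr at −0.06 and Crot at 0.05. Acsl4 differed by 0.01, Acsl5 by −0.12, Crat by −0.19 and Eci2 by 0.04.

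Both KO effects were compared with an interaction term. It passed for 19 of the 36 members, against 23.2% of all genes. In 16 of them the effect of the ChREBPβ deletion was below that of the total deletion, against 13% of all genes. For Acsl1 the difference was −1.20 ± 0.12 (adjusted p = 2.11e-07), for Abcd2 −1.16 ± 0.16 (adjusted p = 1.8e-05) and for Acaa1a −0.86 ± 0.10 (adjusted p = 1.02e-06). In the other 3, Acsl5, Acaa2 and Acox2, it was above, against 10.2% of all genes. With the mean of the adipocyte markers in the fit the balance turned, with 6 members above and 2 below. The median of the mitochondrial members was then 0.28 in place of −0.25. In that fit 4.76% of all probes were called, against 22.5% with the groups alone, and 54.5% of those calls were above 0. The interaction term also holds the WT mice of the total line. For Abcd2 these mice alone were set apart, and total ChREBP KO mice differed from the WT of the ChREBPβ line by −0.02 ± 0.11. Hadha and Hadhb fell in total ChREBP KO mice, but the interaction did not pass for them (0.43 ± 0.23, adjusted p = 0.181, and 0.29 ± 0.16, adjusted p = 0.201), so a difference between the KO effects was not shown for the trifunctional protein.

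The WT mice of both lines differed in these genes. Between WT of the ChREBPβ line and WT of the total line, 21 of 36 members passed (10 higher, 11 lower), against 45.8% of all genes (26.1% higher, 19.7% lower). The arrays of the WT groups did not overlap for Acsl1, Cpt1a and Abcd2, which were higher in the ChREBPβ line, and for Acaa2, which was lower, against 10.5% and 6.42% of all genes. Among those higher in the ChREBPβ line were Abcd2 (1.21 ± 0.11), Cpt1a (1.15 ± 0.18) and Acsl1 (0.68 ± 0.08), and among those lower were Acox2 (−1.26 ± 0.31), Acsl5 (−0.91 ± 0.16), Slc25a20 (−0.78 ± 0.15), Hadha (−0.68 ± 0.15) and Acaa2 (−0.65 ± 0.10). With the processed signals scaled to a percentile in place of quantile normalization, 5 members were called higher and 10 lower. The split also moved with a marker mean in the fit. It was 19 higher and 0 lower with the brown and beige markers and 3 higher and 19 lower with the adipocyte markers. With the lymphocyte markers 1 was higher and 10 were lower. Of all probes 28%, 19.7% and 4.86% were called in these 3 fits, against 45.3% with the groups alone. Higher were 56.4%, 51.5% and 44.7% of those calls. With the processed signals 47.2% of all probes were called. Of the 25 members called in total ChREBP KO mice, 15 were also called between the WT groups with the same sign. Both comparisons share the WT mice of the total line, which draws their differences the same way. The like count over all genes was not made, so the 15 are not read as particular to these genes.

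Total ChREBP KO mice were therefore also set against the WT mice of the ChREBPβ line, a comparison chosen after the data had been seen, in which genotype and line differ together. In it 21 members were called higher and 1 lower, against 16% and 15.5% of all genes, and 31.5% in either direction. Of the 36 members, 17 were higher than both WT groups, against 8.43% of all genes. Of the 6719 genes called higher against the WT of the total line, 2205 were higher than both. Of the 20 such members, 17 were. The exceptions were Abcd2 (−0.02 ± 0.11), Crot (0.09 ± 0.07) and Ech1 (0.03 ± 0.09). Among the 17, Cpt2 (0.88 ± 0.09), Acaa1b (0.89 ± 0.10) and Pecr (0.53 ± 0.13) differed from both WT groups by nearly the same amount, while Cpt1a (0.48 ± 0.18, adjusted p = 0.047) was near the threshold. For 7 members, Acsl1, Cpt2, Echs1, Etfa, Etfb, Acaa1a and Acaa1b, all 7 KO arrays were above all 14 WT arrays, against 2.17% of all genes. All 7 KO arrays were below all 14 WT arrays for Acox2, against 1.87% of all genes. Of the 5 members that fell, only Acox2 was lower than both WT groups (−1.37 ± 0.31 against the ChREBPβ line, adjusted p = 0.00149). Of the 5274 genes called lower against the WT of the total line, 1339 were lower than both, which is 5.12% of all genes. Acsl5 differed by −0.27 ± 0.16, and Hadha, Hadhb and Acaa2 by 0.10, 0.11 and 0.13, none of which passed. Slc25a20 (0.72 ± 0.15), Etfdh (0.47 ± 0.11), Acadvl (0.30 ± 0.09) and Acsl4 (0.26 ± 0.07) were higher in this comparison and had not passed against the WT of their own line.

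**Figure D3:**
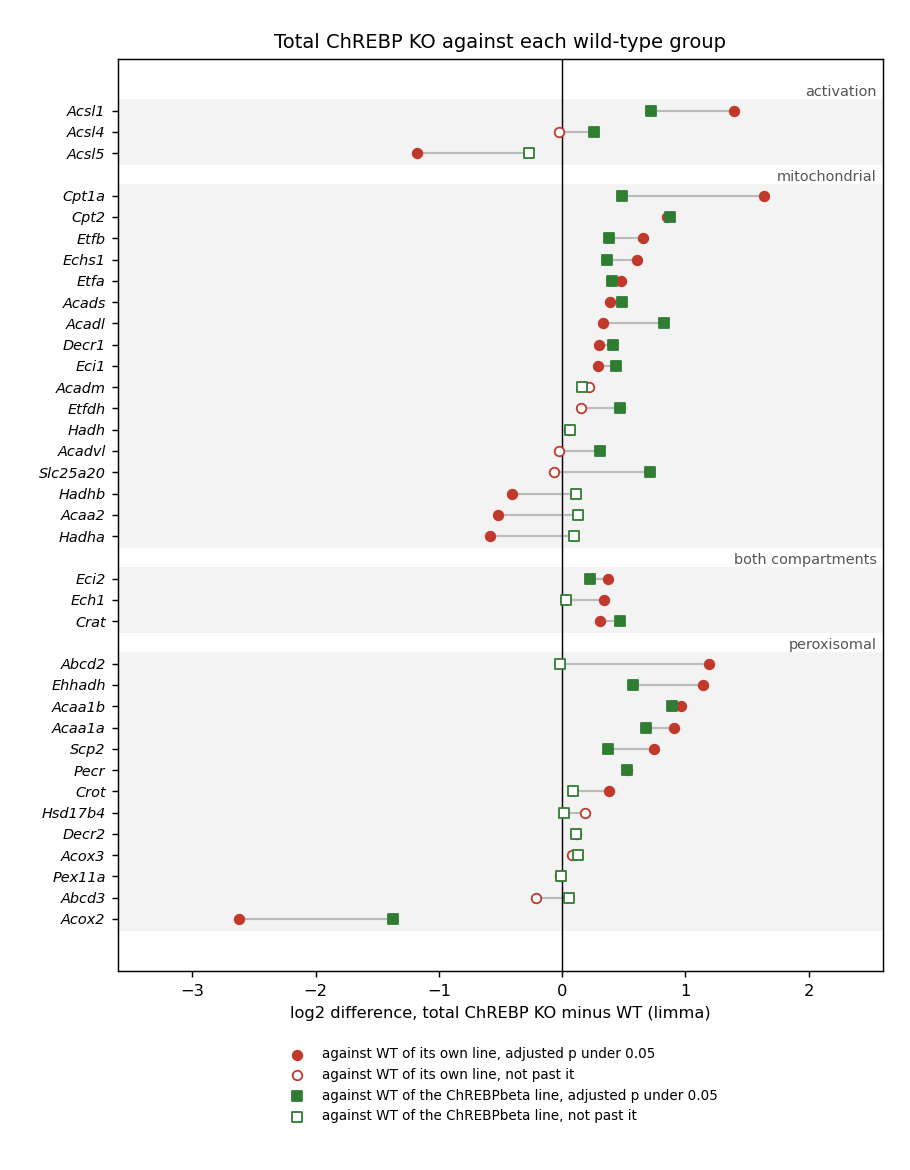
Log2 difference of each member between total ChREBP KO mice and WT of their own line (circles) or WT of the ChREBPβ line (squares), with filled symbols past an adjusted p of 0.05. Acsl5 (−0.27), Hadha, Hadhb and Acaa2 did not pass against the second WT group, and 17 of the 20 rises are present against both.

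Other genes of the pathways, from lists written from general knowledge, are given next. They are to be read against the 25.7% of all genes that were called higher and the 20.2% called lower in total ChREBP KO mice. Of 22 further mitochondrial genes 13 rose and 3 fell in total ChREBP KO mice, and among the largest differences were those of Cpt1b, the muscle and brown fat form of CPT1 (−1.57 ± 0.28), Acacb, which makes the malonyl-CoA that inhibits CPT1 (−1.39 ± 0.17), and Ivd of leucine breakdown (1.04 ± 0.12). Of 32 further peroxisomal genes 18 rose and 2 fell, with Slc27a2, a very long-chain acyl-CoA synthetase (−2.71 ± 0.62), Hacl1 of α-oxidation (1.46 ± 0.12) and catalase, Cat (1.33 ± 0.12), at the largest differences. Of 12 regulators 4 rose and 3 fell, which is near those shares, and the largest differences were those of Ppara, the receptor for fatty acids (1.03 ± 0.17), Esrrg (−0.78 ± 0.25) and Rxra, the partner of PPAR receptors (0.64 ± 0.07). The 12 target genes of PPAR receptors outside β-oxidation behaved otherwise, with 7 lower and 0 higher. They were led by the hormone Fgf21 (−3.43 ± 0.28), the lipid droplet protein Plin2 (−1.39 ± 0.13) and the thioesterase Acot1 (−1.17 ± 0.19). In ChREBPβ KO mice 0 genes of these 4 lists passed, and 2, 1, 3 and 0 of them, in the order given, had an unadjusted p under 0.05. Between the WT groups 12, 11, 9 and 7 genes of these lists were called, in the same order, against 45.8% of all genes. The lists were not set against the WT of the ChREBPβ line.

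Markers of other cell types moved with the groups. The mean of the 15 lymphocyte markers ranged from 11.16 to 12.85 in WT mice of the total line, from 8.10 to 11.49 in total ChREBP KO mice, from 7.52 to 8.61 in WT and from 7.45 to 9.10 in KO mice of the ChREBPβ line, and all 15 were lower in total ChREBP KO mice. The mean of the 9 brown and beige markers ranged from 11.79 to 13.76, 11.06 to 11.80, 10.33 to 11.80 and 10.22 to 10.90 in the same order, and 6 of 9 fell and 1 rose. Ucp1, the uncoupling protein that defines those cells, was at 15.46 in WT and 8.59 in total ChREBP KO mice, a difference of −6.87. The mean of the 12 adipocyte markers was 15.66 to 16.13 in WT mice of the total line and 16.39 to 16.54 in KO mice, with 10 higher and 1 lower. The mean of the 15 skeletal muscle markers spread widely in every group. In the total line it ranged from 5.98 to 11.59 in WT mice, with a median of 6.14. In KO mice it ranged from 6.18 to 12.35, with a median of 10.38. All 15 differed upward, by a median of 2.21, with 4 passing and 11 at an unadjusted p under 0.05 in limma. With these markers in the fit 10 mitochondrial members were called higher and 3 lower, and 7 peroxisomal members higher and 1 lower. Of all probes 41.4% were called in that fit, against 45.5% with the groups alone. No list had a marker below background on all arrays of a group. In a whole tissue, fewer cells of a type and less RNA per cell cannot be told apart.

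**Figure D4:**
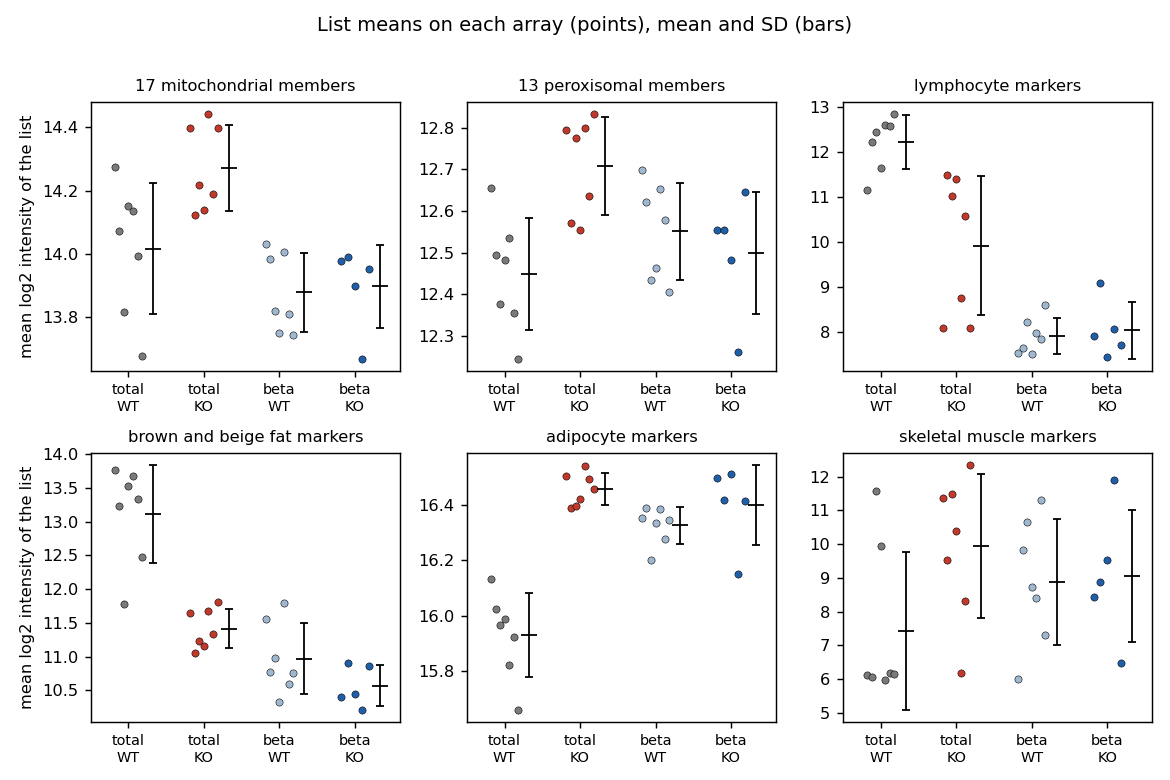
Mean log2 intensity (y axis) of the mitochondrial and peroxisomal members and of 4 marker lists on each array, by group (x axis), with the mean and SD beside the points. WT mice of the total line had the highest mean of lymphocyte and of brown and beige markers and the lowest mean of adipocyte markers.

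Within groups, the members followed these markers to different degrees. Over 26 arrays, with each group's mean removed, the mean of the 17 mitochondrial members had r = 0.82 with the brown and beige markers, 0.70 with the adipocyte markers, −0.58 with the lymphocyte markers and −0.28 with the skeletal muscle markers. The arrays share their normalization, so these are descriptions. By gene, r with the brown and beige markers was over 0.5 for 12 of 17 mitochondrial and 5 of 13 peroxisomal members. It was highest for Hadha (0.89), Acadl (0.87) and Hadhb (0.86), and it was low for Cpt1a (−0.21), Abcd2 (0.07), Acsl1 (0.19) and Ehhadh (0.27). With the adipocyte markers r was over 0.5 for 23 of the 36 members, and was 0.59 for Acsl1, 0.51 for Abcd2, 0.41 for Ehhadh and −0.16 for Cpt1a. With the skeletal muscle markers r was between −0.45 and 0.24 for every member.

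Adding the mean of a marker list to the fit moved some members and left others. With the brown and beige markers 25 members were called higher and 1 lower in total ChREBP KO mice, and the falls of Hadha (0.31), Hadhb (0.18) and Acaa2 (−0.09) no longer passed, nor did that of Acsl5 (−0.46), while Acox2 stayed lower (−1.48). With the lymphocyte markers 10 were called higher and 6 lower. With the adipocyte markers 4 were called higher and 7 lower. Of all probes 39.1%, 15% and 6.03% were called in these 3 fits, against 45.5% with the groups alone. Acsl1 differed by 1.5, 1.22 and 0.96, Cpt1a by 1.38, 1.31 and 1.90, and Abcd2 by 1.24, 1.01 and 0.68 in these 3 fits, and all passed. Acaa1b (0.31), Ehhadh (0.54) and Cpt2 (0.38) did not pass with the adipocyte markers. The groups of the total line did not overlap in adipocyte markers, so a share of the group difference is taken up by this term. They overlapped little in the brown and beige markers (11.79 to 13.76 in WT and 11.06 to 11.80 in KO mice). In the lymphocyte markers the overlap was between 11.16 and 11.49. The brown and beige and the lymphocyte terms can therefore also take up a share of the group difference.

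**Figure D5:**
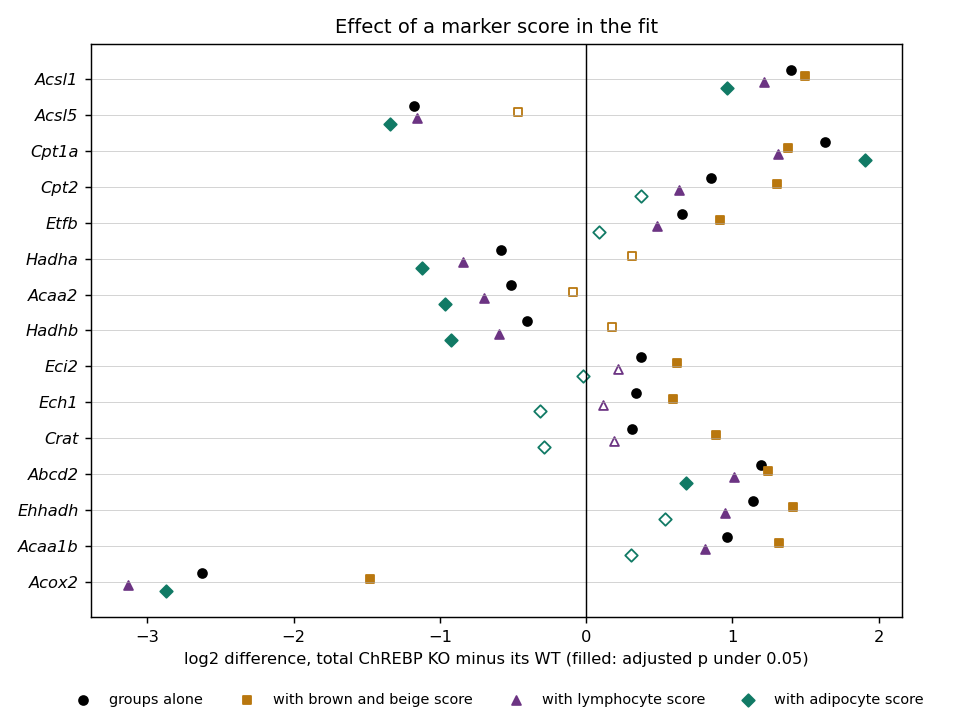
Log2 difference between total ChREBP KO mice and their WT (x axis) for 15 members (y axis), with the 4 groups alone in the fit or with the mean of 1 marker list added, and filled symbols past an adjusted p of 0.05. Acsl1, Cpt1a and Abcd2 stayed higher in all 4 fits, and Hadha, Hadhb and Acaa2 lost their fall with the brown and beige markers.

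The array washing batch was also looked at. The 4 wash batches each held both groups of the total line, with 1 or 2 arrays of each. The falls of Hadha, Hadhb and Acaa2, whose groups overlapped, had the same sign in all 4. So did the rises of Acsl1, Cpt1a, Cpt2, Etfb, Abcd2, Ehhadh, Acaa1a, Acaa1b and Scp2 and the falls of Acsl5 and Acox2. For these genes the groups did not overlap, so their sign was fixed in every batch. Acadl, Acads, Decr1, Eci1, Crat and Pecr, which rose over all arrays, were lower in the first batch. That batch held 1 WT array of the total line, replicate 4, so its differences rest on that array. Among the WT mice of that line it had the highest mean of mitochondrial members (14.27) and of brown and beige markers (13.76). Across the 17 mitochondrial members 5 were higher in the first batch, with a median difference of −0.09, and 12, 11 and 14 were higher in the others, with medians of 0.37, 0.18 and 0.50. Across the 13 peroxisomal members 8, 11, 11 and 10 were higher. With the batch as a block 17 members were called higher and 6 lower in total ChREBP KO mice. Of all probes 44.9% were called in that fit, against 45.5% without the block.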

How the data were processed

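Inguinal fat RNA of 26 mice was measured on 1-colour Agilent arrays (SurePrint G3 mouse design, annotation mm9), with groups taken from the sample titles. The authors scanned the arrays and extracted spots with Agilent Feature Extraction 10.10.1.1, and the deposited scanner files hold each spot's intensity on a linear scale. Log2 values in a table of the series were made by the authors with a spot quality filter, quantile normalization and the median of replicate probes. That deposited log2 table was the main source here. Intensities recomputed from the scanner files had r of at least 0.99996 with it on every array.

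The 40168 probes were fitted in R 4.3.3 by limma 3.58.1 (lmFit, eBayes), with a mean per group over all 26 arrays (22 residual degrees of freedom), and p-values were adjusted by Benjamini-Hochberg over all probes. A gene was called at an adjusted p under 0.05. Errors in the text are standard errors from limma unless stated. Per the study's methods mice of several litters were used, and which litter each array's mouse came from is not given in the sources used here, so p-values measure the spread between these mice. The number of arrays limits the precision.

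The members and the lists were chosen with earlier results of these data known. The members named with values in each group were the 3 largest rises and falls among called members of each function. Acaa1a, the near-identical copy of Acaa1b, and Scp2 were given as well, after their values had been seen. In wider lists the 3 largest called differences were named. Other marker lists were macrophage, epithelium, red blood cell and reference genes. Alternatives were other normalizations, filters, probes, batch, slide and replicate blocks, marker scores as covariates, and leaving out each array. The scores of brown and beige and of adipocyte markers, the comparison with the other WT group and the replicate number shared by both lines were chosen after seeing the data. Scanner files give slide and scan day, and 15 slides carried the arrays.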

Additional observations from a re-analysis of the deposited data

Results flagged for a closer look

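Some arrays stood far from the rest of their group. Of 144 sets of values (36 members in 4 groups), 8 held a highest or lowest array whose gap to its neighbour was beyond Dixon's 95% limit, and chance gives about 1 in 20. Of these, 5 were the lowest value of ChREBPβ KO replicate 4, for Cpt2 (13.88), Hadh (13.82), Echs1 (14.08), Etfa (14.96) and Acaa1b (11.28). A further 2 were the lowest value of replicate 8 of the WT mice of the total line, for Etfa (14.78) and Eci2 (13.64), and the last was the highest Acsl4 value, on ChREBPβ KO replicate 5 (12.07). Without ChREBPβ KO replicate 4, 0 members were called in ChREBPβ KO mice, as with it.

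For 19 members the effects of the 2 deletions differed by the interaction term (ChREBPβ effect minus total effect, on the log2 scale). It was below 0 for Acsl1 (−1.20), Abcd2 (−1.16), Ehhadh (−1.15), Cpt1a (−1.07), Acaa1b (−0.94), Cpt2 (−0.91), Acaa1a (−0.86), Etfb (−0.76), Scp2 (−0.73), Echs1 (−0.67), Pecr (−0.58), Crat (−0.51), Acads (−0.42), Etfa (−0.39), Eci2 (−0.33) and Crot (−0.33). It was above 0 for Acox2 (1.91), Acsl5 (1.06) and Acaa2 (0.70). Among these members, Abcd2, Crot, Acsl5 and Acaa2 did not pass between total ChREBP KO mice and the WT of the ChREBPβ line. The terms of Crat and Eci2 did not pass without any 1 of 8 and of 4 arrays.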

How the results depend on the processing

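The 25 members called in total ChREBP KO mice became 15 with slide as a fixed block, 16 with the lymphocyte score and 11 with the adipocyte score, and 22 to 26 without any 1 array. Over all probes the share called was 21.5%, 15% and 6.03% in these 3 settings, against 45.5%. The 19 members whose KO effects differed became 3, 12 and 8 in these settings and 10 with muscle and lymphocyte scores together, and 14 to 19 without any 1 array, with 1.56%, 6.28%, 4.76% and 5.7% of all probes called, against 22.5%. The 21 called between the WT groups became 12 with slide as a fixed block, 11 with the lymphocyte score and 10 with both scores, and 19 to 22 without any 1 array, with 31%, 4.86% and 3.85% of all probes called, against 45.3%. In ChREBPβ KO mice the count was 0 under every alternative run, and 0 to 0 without any 1 array. The slide block left few arrays to compare within a slide, and the cause of the other changes was not tested.

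Directions turned as follows. In the total comparison Acsl5 was 0.12 on its dimmer probe, Hadha 0.31 and Hadhb 0.18 with the brown and beige score, and Eci2 −0.0189, Ech1 −0.32 and Crat −0.29 with the adipocyte score. For the difference between KO effects, Acsl5 was −0.22 on its dimmer probe, and Eci2 0.00641 and Crat 0.0129 with the adipocyte score. Between the WT groups, Etfb was −0.0535, −0.0409 and −0.15 and Ech1 −0.12, −0.10 and −0.19 with the lymphocyte, the muscle and lymphocyte, and the adipocyte scores, and Hadha was 0.45, Hadhb 0.22 and Acox2 0.19 with the brown and beige score. Over 38 tested differences of 15 named members, 1460 of 1566 values kept their direction and call, and 88 kept the direction alone. With the processed signals scaled to a percentile, 15 members were called between the WT groups, and 48.6% of calls over all probes there were higher, against 56.4% in the deposited table. Hadhb did not pass in the total comparison with intensities recomputed from the scanner files (−0.32, adjusted p = 0.0515) or after normexp (−0.30).

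Replicate numbers were shared by 10 pairs of KO and WT mice. The deviations of a pair from their group means correlated at −0.36 to 0.51, over 0.1 in 4 pairs. Of the 10 KO arrays, 2 correlated best with the WT array of their own number. These values gave no sign that the numbers pair the mice, but they cannot exclude it. With the replicate number as a block, 25, 0, 14 and 21 members were called in the total, ChREBPβ, difference and WT comparisons. Of all probes 39.5%, 0.0124%, 14.4% and 42.6% were called there, in the same order.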

Other observations

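Of the 9 macrophage markers 3 were lower in total ChREBP KO mice and 6 were higher in WT of the ChREBPβ line than in WT of the total line. The mean of these markers was 11.15 to 11.67 in total ChREBP KO mice, the narrowest range of the 4 groups, and 11.42 to 12.82 in their WT. With each group's mean removed, it had r = −0.58 with the mean of the mitochondrial members and −0.66 with that of the peroxisomal members over 26 arrays. Of 6 epithelial and 3 red blood cell markers 0 passed in limma in either KO comparison, where 1 epithelial marker in the total and 1 red blood cell marker in the ChREBPβ comparison had an unadjusted p under 0.05, and the reference genes Hprt and Ppia differed by 0.03 and 0.07 in total ChREBP KO mice.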
